A study of Homo sapiens with 6 samples.

Results

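The genes described here code for 10 secreted inflammatory signals that tumour cells can make: the chemokines CXCL1, CXCL2, CXCL3, CXCL5, CXCL8, CCL2 and CCL20, and the cytokines IL6, IL1A and IL1B. They are the rows of the gene table whose Ensembl identifier belongs to these symbols, 10 of 60960 features, and that rule uses no measured value. Bulk RNA sequencing gave their mRNA levels in a human cell line from a non-small cell lung cancer, NCI-H1975. There were 3 libraries labelled siGFPT2, a small interfering RNA (siRNA) against GFPT2, and 3 libraries labelled siNC, a control siRNA. GFPT2 codes for an enzyme at the entry to hexosamine synthesis, and the stated aim was to compare gene expression between these groups.

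The material is 1 cell line and 1 siRNA label, and no time after transfection is given in the sources used here. The labels do not say that the libraries within a group are separate cultures. The p-values therefore cover the spread among these 6 samples alone, and that spread may be technical. The extraction text also mentions Almonertinib, EGF and knockdown of EGFR. No treatment label carries any of these. In bulk RNA, a lower value can come from fewer expressing cells or from less RNA in each cell, and these cannot be told apart.

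Chemokines are small secreted proteins that direct the movement of leukocytes. The CXC chemokines of this set carry the glutamate-leucine-arginine motif and attract neutrophils through CXCR1 and CXCR2, while CCL2 attracts monocytes through CCR2 and CCL20 attracts CCR6-bearing lymphocytes and dendritic cells. IL1A and IL1B act through the IL1 receptor to switch on NF-kappaB, and IL6 acts through its receptor and the shared subunit IL6ST to switch on STAT3. In epithelial cells the transcription of CXCL1, CXCL8, CCL20 and IL6 is known to be raised by NF-kappaB, AP-1 and C/EBP factors.

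The stretches of promoter shown next hold the letters that NF-kappaB dimers are known to bind, because NF-kappaB is a known activator of several of these genes. The sequences are RefSeq promoters (build GRCh38.p14), which reach from 250 bases before the RefSeq start to 50 bases after it, and 9 of the 10 genes matched an entry there (CCL2 has none). The motif searched was GGNNTTTCC on both strands, where N is any base. Capitals mark the match, with 10 bases on each side, and each line reads 5′ to 3′ along the gene's own strand.
CXCL1, chr4:73869305-73869333, plus strand: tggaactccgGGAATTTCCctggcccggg
CXCL2, chr4:74099254-74099282, minus strand: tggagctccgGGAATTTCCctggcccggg
CXCL3, chr4:74038749-74038777, minus strand: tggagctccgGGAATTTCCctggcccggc
CXCL5, chr4:73998749-73998777, minus strand: atgagttcagGGAATTTCCccagcatccc
CXCL8, chr4:73740468-73740496, plus strand: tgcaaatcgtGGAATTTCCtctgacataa
CCL20, chr2:227813753-227813781, plus strand: tgatcaatggGGAAAACCCcatgtggcaa
IL6, chr7:22727118-22727146, plus strand: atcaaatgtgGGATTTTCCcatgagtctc

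The 5 CXC chemokine genes shared the same 9 letters, GGAATTTCC, between 91 and 69 bases before the start. That word, searched on both strands, was in 162 of 35116 promoter entries (0.461%), and the looser GGNNTTTCC, which includes it, was in 6.26% of them. The looser motif was found in 7 of the 9 genes with an entry. CCL20 had it on the opposite strand, so the gene's own strand reads GGAAAACCC there. CXCL1, CXCL2 and CXCL3 each held another match, GGGCTTTCC, from 53 to 45 bases before the start. The letters of an AP-1 element, TGACTCA, were found in CXCL8 and IL1A, and in 4.95% of all entries. These matches describe the sequence and are neither sites nor causes of any level given here.

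CXCL1, CXCL2 and CXCL3 are close copies of each other. Over the 250 bases before the start, CXCL1 and CXCL3 were 81.4% identical after alignment, CXCL2 and CXCL3 73.3%, and CXCL1 and CXCL2 70.4%, while the other pairs of these genes lay between 33.1% and 47.4%. In the transcripts of GENCODE 29, 12.5% of the 50-base words of CXCL2 also occurred in CXCL3 or CXCL1, against 6.01% for CXCL3 and 4.81% for CXCL1. How reads with several matches were treated is not given in the sources used here, so the split of reads between these 3 genes is uncertain. CXCL8, CCL2, CCL20, IL6, IL1A and IL1B shared no such word with another gene, and CXCL5 shared 1.12% with GLYR1.

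The libraries held 22717791, 27234880 and 22198121 counted fragments with the label siGFPT2, and 22119118, 21899321 and 24493042 with the label siNC. GFPT2 itself (chromosome 5, 180300690 to 180353387, minus strand) had 8.94, 7.58 and 8.72 FPKM in the siGFPT2 libraries, against 10.1, 9.30 and 8.28 FPKM in the siNC libraries. FPKM is fragments per kilobase of gene length, scaled to the counted fragments of the library. The groups overlapped, with means of 8.41 ± 0.734 FPKM (siGFPT2) and 9.24 ± 0.925 FPKM (siNC; SD, n = 3 each), a log2 fold change of −0.13 (95% interval −0.43 to 0.17) and p = 0.4 in an exact two-sided permutation test. GFPT2 mRNA therefore did not separate the labels over the 6 libraries, and the groups are named by their labels throughout. Replicate 2 of siGFPT2 and replicate 3 of siNC stood apart from the other 4 libraries: long mRNAs were lower relative to short ones, by −0.35 and −0.55 log2 units, against 0.15 to 0.30 in the others. In each group GFPT2 was lowest in the library that stood apart, at 7.58 and 8.28 FPKM. In the other 4 libraries GFPT2 was lower with siGFPT2 (8.94 and 8.72 FPKM) than with siNC (10.1 and 9.30 FPKM). Whether the length shift accounts for the overlap of GFPT2 was not tested. The epithelial marker KRT19 averaged 517 FPKM and KRT7 429 FPKM over the 6 libraries. Of 10 leukocyte markers, CSF1R at 5.52 FPKM and CD14 at 2.31 FPKM reached 1 FPKM, and the summed level of the 10 was 8.10 to 8.43 FPKM in siGFPT2 libraries and 7.94 to 8.62 FPKM in siNC libraries. The pan-leukocyte gene PTPRC averaged 0.00668 FPKM and the B cell gene MS4A1 was listed at 0 in every library. Of 7 fibroblast markers 2 reached 1 FPKM (COL1A1 at 6.61 FPKM and COL1A2 at 2.57 FPKM), and of 5 endothelial markers 0 did.

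The chemokine and cytokine mRNAs were present at low levels in this line, with means over the 6 libraries from 0.0480 FPKM for CCL20 to 4.64 FPKM for CXCL1. Their order was CXCL1, CXCL2 (3.32 FPKM), CCL2 (2.74), CXCL8 (2.01), IL6 (1.73), CXCL5 (0.685), CXCL3 (0.590), IL1A (0.541), IL1B (0.303) and CCL20. CXCL1 was above CXCL2 in 6 of 6 libraries, and IL6 was above CXCL5 in 6 of 6. The order between neighbours was less firm elsewhere: CXCL2 was above CCL2 in 5 libraries, CCL2 above CXCL8 in 5, CXCL8 above IL6 in 4, CXCL5 above CXCL3 in 4 and CXCL3 above IL1A in 4. IL1A was above IL1B, and IL1B above CCL20, in 6 of 6. The 10 genes summed to 17.5, 18.2 and 16.8 FPKM in the siGFPT2 libraries, against 14.5, 15.7 and 17.0 FPKM in the siNC libraries, so the groups overlapped. The 5 CXC chemokines made up 69.3% to 69.8% of that sum in siGFPT2 libraries and 63.7% to 67.0% in siNC libraries. This share was not tested and has no counterpart over all features beside it, so it is given as a description.

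**Figure D1:**
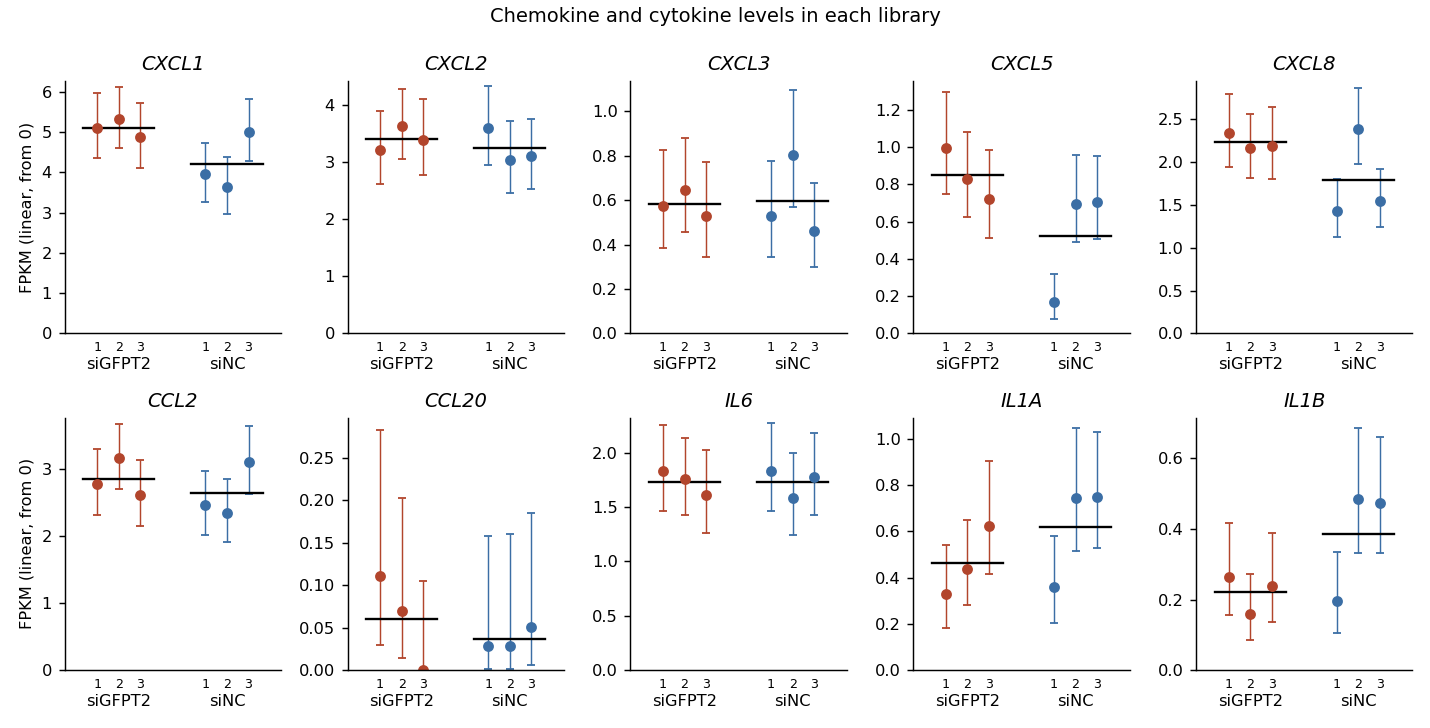
FPKM (linear axes from 0) of each gene in each library, with siGFPT2 left of siNC; points are libraries, whiskers are 95% Poisson intervals of the fragments, and black lines are group means. The points of the groups overlap for each gene except CXCL5, whose lowest siGFPT2 library (0.721 FPKM) is just above the highest siNC library (0.704 FPKM).

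Features that averaged 1 FPKM or more across the libraries were tested with limma on log2(FPKM + 0.1), with p-values adjusted by Benjamini-Hochberg over all 12896 of them. None was called at an adjusted p under 0.05 (0% of those tested), and 84 had an unadjusted p under 0.05 (0.651%). Limma-voom on recovered reads also called 0, with 60 at an unadjusted p under 0.05. The filter passed 5 of the 10 genes (CXCL1, CXCL2, CXCL8, CCL2 and IL6). Of these, 0 were called and 0 had an unadjusted p under 0.05. Their median log2 fold change was 0.11, beside 0.03 over all features tested. The 5 others (CXCL3, CXCL5, CCL20, IL1A and IL1B) are under the filter and are given as values, with a fit that applied no filter.

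CXCL1, a strong neutrophil attractant first known as a melanoma growth factor (ENSG00000163739, chromosome 4, 73869393 to 73871242, plus strand), had 5.11, 5.31 and 4.86 FPKM in the siGFPT2 libraries, against 3.95, 3.62 and 5.01 FPKM in the siNC libraries. All 3 siGFPT2 libraries lay above siNC replicates 1 and 2, and siNC replicate 3 lay inside the siGFPT2 range. The means were 5.09 ± 0.225 FPKM (siGFPT2) and 4.19 ± 0.724 FPKM (siNC; SD, n = 3 each), on 147 to 197 and 108 to 167 fragments per library. The log2 fold change was 0.29 ± 0.15 (SE; 95% interval −0.06 to 0.64) with an adjusted p of 0.9999 in limma, and p = 0.2 in an exact two-sided permutation test of the mean FPKM, where 3 against 3 cannot go below 0.1.

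In each group CXCL1 was highest in the library that stood apart. Its deviations from its own mean were 0.15, 0.20 and 0.08 log2 units in siGFPT2 libraries and −0.21, −0.34 and 0.12 in siNC libraries. The median of 2352 tested features with exon lengths from 1362 to 3009 bases deviated by −0.07, 0.14 and −0.06 in siGFPT2 libraries and −0.07, −0.12 and 0.21 in siNC libraries. That range spans the lengths that gave whole reads for these 10 genes. The GENCODE 29 exon length of CXCL1, 1296 bases, is just under it. The siNC library with the high CXCL1 value was also the siNC library in which the median of that range was highest. Whether the length shift accounts for the CXCL1 value was not tested. Without siNC replicate 3 the log2 fold change of CXCL1 was 0.42 (unadjusted p = 0.0114, adjusted p = 0.810 in limma), in a fit where 520 features (4.03%) had an unadjusted p under 0.05. With siNC replicate 3 and siGFPT2 replicate 2 left out it was 0.39 (unadjusted p = 0.00870, adjusted p = 0.720), where 751 features did (5.82%). Other settings gave lower values or larger p: 0.19 (unadjusted p = 0.262) without siNC replicate 2, 0.23 (unadjusted p = 0.233) with median centring, and an unadjusted p of 0.20 with the replicate number as a block. With the trend on exon length removed from each library, an alternative chosen after seeing the data, the CXCL1 deviations were 0.24, 0.03 and 0.16 in siGFPT2 libraries and −0.10, −0.19 and −0.13 in siNC libraries, which do not overlap. With that correction 229 of 12567 features (1.82%) had groups that did not overlap with siGFPT2 higher, and 3.97% in either direction. The log2 fold change was then 0.28 (95% interval 0.05 to 0.52, unadjusted p = 0.0252, adjusted p = 0.9999 in limma), in a fit where 0.891% of features had an unadjusted p under 0.05. CXCL1 was called in none of the 15 alternatives in which it was tested, with adjusted p-values from 0.720 upward.

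CXCL2 (ENSG00000081041, chromosome 4, 74097035 to 74099293, minus strand), a neutrophil chemokine made by the same cells, had 3.21, 3.62 and 3.38 FPKM in siGFPT2 libraries, against 3.59, 3.04 and 3.10 FPKM in siNC libraries. The highest siNC library was just under the highest siGFPT2 library, and the groups overlapped over most of their range. The means were 3.41 ± 0.207 FPKM (siGFPT2) and 3.24 ± 0.303 FPKM (siNC; SD, n = 3 each). The log2 fold change was 0.07 (95% interval −0.23 to 0.37; adjusted p = 0.9999 in limma).

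CXCL3 (ENSG00000163734, chromosome 4, 74036589 to 74038807, minus strand), a close copy of CXCL1 and CXCL2, had 0.575, 0.645 and 0.528 FPKM in siGFPT2 libraries, against 0.530, 0.803 and 0.460 FPKM in siNC libraries. The siNC libraries held both the highest and the lowest value. The means were 0.583 ± 0.0591 FPKM (siGFPT2) and 0.597 ± 0.181 FPKM (siNC; SD, n = 3 each), on 94 and 90 fragments in all. In the fit with no filter the log2 difference was −0.003 (95% interval −0.61 to 0.60). It was 0.20 without siNC replicate 2 and −0.15 without siNC replicate 3.

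CXCL5, an epithelial neutrophil attractant (ENSG00000163735, chromosome 4, 73995642 to 73998779, minus strand), had 0.994, 0.829 and 0.721 FPKM in siGFPT2 libraries, against 0.167, 0.694 and 0.704 FPKM in siNC libraries. It was the single gene of the 10 whose groups did not overlap, beside 2.4% of the 36981 features above 0 in any library with siGFPT2 higher, and 5.03% in either direction. Among features past the filter 3.53% had groups that did not overlap, and of the 5 genes here that passed it 0 did. The margin was small, since siGFPT2 replicate 3 and siNC replicate 3 had 39 and 42 fragments, at 0.721 and 0.704 FPKM.

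The low CXCL5 mean in siNC rested on replicate 1, which had 9 fragments (0.167 FPKM, exact 95% Poisson interval 0.0764 to 0.317), against 37 and 42 in the other siNC libraries. Such intervals, here and in the plots, cover counting error only. The means were 0.848 ± 0.137 FPKM (siGFPT2) and 0.522 ± 0.307 FPKM (siNC; SD, n = 3 each), with p = 0.1 in an exact two-sided permutation test, the smallest that 3 against 3 allows. The log2 difference was 0.76 (95% interval −0.36 to 1.89, unadjusted p = 0.150 in limma) in the fit with no filter. Without siNC replicate 1 the difference was 0.24.

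CXCL8 (interleukin-8; ENSG00000169429, chromosome 4, 73740506 to 73743716, plus strand), the main human neutrophil chemokine, had 2.34, 2.16 and 2.19 FPKM in siGFPT2 libraries, against 1.43, 2.39 and 1.55 FPKM in siNC libraries. The siGFPT2 libraries lay close together, and the siNC libraries lay on both sides of them: replicate 2 was the highest of the 6 and replicates 1 and 3 were the lowest. The means were 2.23 ± 0.0938 FPKM (siGFPT2) and 1.79 ± 0.520 FPKM (siNC; SD, n = 3 each), with p = 0.4 in an exact two-sided permutation test. The log2 fold change of CXCL8 was 0.34 ± 0.21 (SE; 95% interval −0.16 to 0.83; adjusted p = 0.9999 in limma), larger than that of CXCL1 with a wider interval. Leaving out siNC replicate 2 gave 0.55 (unadjusted p = 0.0127, adjusted p = 0.969 in limma), in a fit where 1.25% of features had an unadjusted p under 0.05, and leaving out siNC replicate 1 gave 0.20.

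CCL2 (ENSG00000108691, chromosome 17, 34255218 to 34257203, plus strand), the monocyte attractant, had 2.77, 3.16 and 2.61 FPKM in siGFPT2 libraries, against 2.46, 2.35 and 3.10 FPKM in siNC libraries. In each group the highest library was the library that stood apart, siGFPT2 replicate 2 and siNC replicate 3. The means were 2.85 ± 0.284 FPKM (siGFPT2) and 2.64 ± 0.409 FPKM (siNC; SD, n = 3 each), and the log2 fold change was 0.11 (95% interval −0.26 to 0.49; adjusted p = 0.9999 in limma). With the length trend removed the CCL2 groups did not overlap (beside the 1.82% of all features given for CXCL1), with deviations of 0.11, 0.06 and 0.003 log2 units in siGFPT2 libraries and −0.05, −0.07 and −0.04 in siNC libraries. The log2 fold change was then 0.11 (95% interval −0.13 to 0.35). Without siNC replicate 3 it was 0.23, and without siGFPT2 replicate 2 or siNC replicate 2 it was 0.04.

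CCL20 (ENSG00000115009, chromosome 2, 227805739 to 227817564, plus strand), the ligand of CCR6, was close to the limit of detection, with 11 fragments in all. The libraries held 4, 3 and 0 fragments with the label siGFPT2 and 1, 1 and 2 with the label siNC. In FPKM these were 0.110, 0.0691 and 0 (siGFPT2), against 0.0284, 0.0286 and 0.0512 (siNC). The 0 in siGFPT2 replicate 3 allows a level of up to 0.0848 FPKM (3 fragments), and the upper end of its two-sided 95% Poisson interval is 0.104 FPKM. Both are above each siNC value, so no difference was detectable at this depth. The log2 difference of CCL20 was 0.17 in the fit with no filter and −0.06 without siGFPT2 replicate 1.

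IL6 (ENSG00000136244, chromosome 7, 22725884 to 22732002, plus strand), an inflammatory cytokine that tumour cells can also sense, had 1.83, 1.76 and 1.61 FPKM in siGFPT2 libraries, against 1.84, 1.59 and 1.78 FPKM in siNC libraries. The ranges nearly coincided. The means were 1.73 ± 0.111 FPKM (siGFPT2) and 1.73 ± 0.129 FPKM (siNC; SD, n = 3 each), and the 95% interval of the log2 fold change was −0.33 to 0.33 around a value of −0.0001 (adjusted p = 0.9999 in limma). The exons of IL6 overlap an antisense gene, AC073072.1, over 428 bases and STEAP1B over 46 bases on the opposite strand in GENCODE 29. The labels do not say whether strand was kept, so reads of these genes cannot be told apart from those of IL6 there.

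IL1A (ENSG00000115008, chromosome 2, 112773915 to 112784590, minus strand), an alarmin that epithelial cells hold in the nucleus and release when damaged, had 0.327, 0.437 and 0.625 FPKM in siGFPT2 libraries, against 0.359, 0.747 and 0.749 FPKM in siNC libraries. The siNC replicate 1 library lay inside the siGFPT2 range and the other siNC libraries above it. The means were 0.463 ± 0.151 FPKM (siGFPT2) and 0.618 ± 0.225 FPKM (siNC; SD, n = 3 each). In the fit with no filter the log2 difference was −0.33 (95% interval −1.17 to 0.52). It was −0.62 without siNC replicate 1, −0.18 without siNC replicate 2 or replicate 3, and −0.15 without siGFPT2 replicate 1.

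IL1B (ENSG00000125538, chromosome 2, 112829751 to 112836903, minus strand), which is made as a precursor and cut by the inflammasome protease CASP1, had 0.263, 0.159 and 0.240 FPKM in siGFPT2 libraries, against 0.195, 0.486 and 0.475 FPKM in siNC libraries. The pattern over siNC libraries was that of IL1A, with replicate 1 low and replicates 2 and 3 high. These values rested on 18, 13 and 16 fragments in siGFPT2 libraries and on 13, 32 and 35 in siNC libraries. The means were 0.220 ± 0.0549 FPKM (siGFPT2) and 0.385 ± 0.165 FPKM (siNC; SD, n = 3 each), and the log2 difference in the fit with no filter was −0.55 (95% interval −1.41 to 0.31, unadjusted p = 0.173 in limma). Without siNC replicate 1 it was −0.87.

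**Figure D2:**
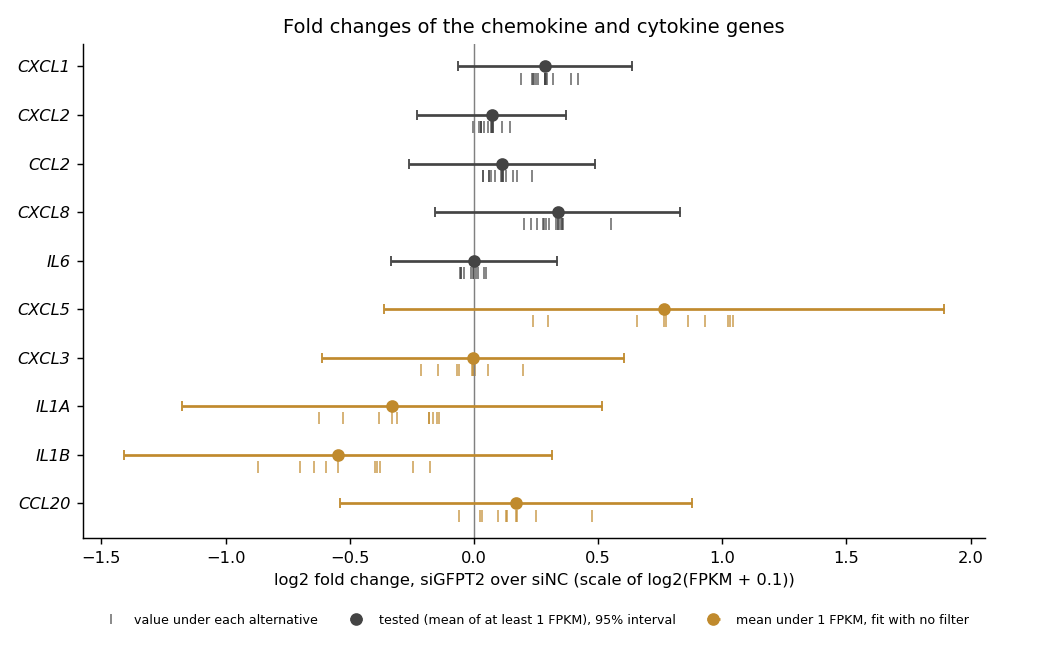
Log2 fold change of each gene, siGFPT2 over siNC, with its 95% interval (points and bars; grey for the 5 genes tested, ochre for the 5 with a mean under 1 FPKM, from the fit with no filter). Small ticks are the values under each alternative, those with another pseudocount being on that pseudocount's own scale; the 10 intervals each include 0, and CXCL5 has the widest, −0.36 to 1.89.

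How much these genes varied between libraries differed widely from gene to gene. Over the 6 libraries, the coefficient of variation of FPKM was 6.20% for IL6 and 7.50% for CXCL2, below the 10.9% and 9.57% that counting error gives in a single library of that depth. CXCL1 varied by 14.8% with a counting error of 8.18%, CXCL8 by 20.5% with 9.74%, and CCL2 by 12.2% with 8.82%. CXCL5 varied by 40.6% with 15.9%, IL1B by 46.9% with 21.7%, and IL1A by 35.3% with 19.8%. In CXCL5, IL1A and IL1B alike, siNC replicate 1 was the lowest siNC library. The same held for CXCL8 and, by a hair, for CCL20 (0.0284 FPKM, against 0.0286 FPKM in siNC replicate 2). CXCL3 at 20.5% and CCL20 at 80.3% were near their counting errors of 18.1% and 73.9%.

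**Figure D3:**
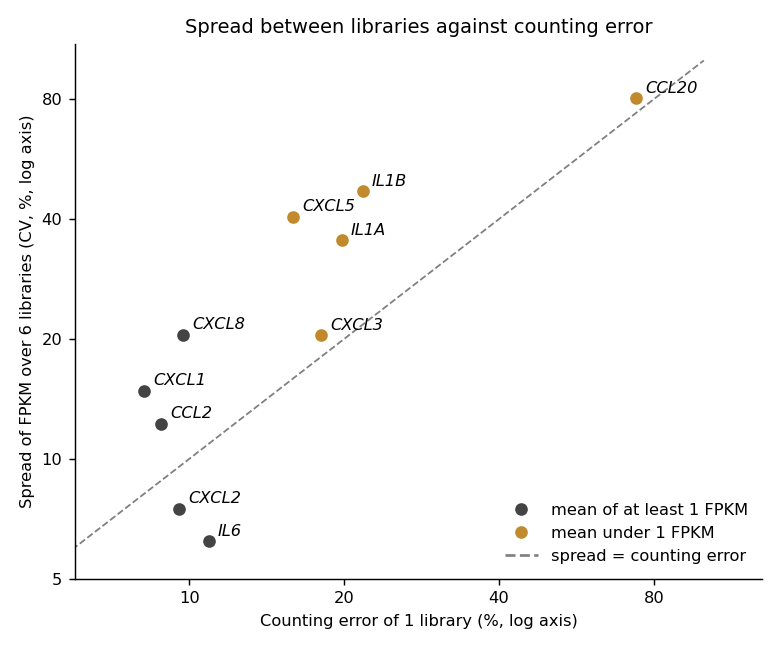
Coefficient of variation of FPKM over the 6 libraries (%, log axis) against the counting error expected in a single library (%, log axis), a point per gene; the dashed line marks equal values. IL6 and CXCL2 lie under the line, CXCL3 and CCL20 close to it, and CXCL1, CXCL5, CXCL8, CCL2, IL1A and IL1B above it.

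The profiles over libraries did not all run in parallel among the genes that passed the filter. Likeness was measured as the root mean square difference of log2(FPKM + 0.1), each gene centred on its own mean, over the 6 libraries. Within the set, the closest pairs were CXCL2 with IL6 and CXCL1 with CCL2 (0.10 each), and CXCL8 was 0.31 to 0.33 from each of CXCL1, CXCL2, CCL2 and IL6. CXCL2 and IL6 barely varied: their root mean square deviations from their own means, 0.096 and 0.078, were below their difference of 0.0996. For CXCL1 and CCL2 these deviations were 0.20 and 0.15, above their difference. CXCL1 and CXCL2, whose promoters were 70.4% identical, differed by 0.20. Among 12629 other tested features with a symbol, the closest to CXCL1 were CYP2C8 and DGUOK-AS1 (0.04 each), to CXCL2 CCDC71 (0.03) and ASB13 (0.04), and to CXCL8 RBM43 (0.06) and ADNP-AS1 (0.07). CCDC116 (0.03) was close to CCL2, and the closest to IL6 were H2BC12 (0.02) and LETM1 (0.03). With 6 libraries and this many features, close matches are a description of these libraries.

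The set was next placed among 59 chemokine and cytokine genes, of which 49 are other ligands. With a mean of at least 1 FPKM, 18 of the 59 were expressed, 5 of them from the set. CXCL1 ranked eighth, after CLCF1, LIF, IL18, IL11, CCL26, CSF1 and IL32. CLCF1 and LIF, cytokines that act through the IL6ST subunit as IL6 does, averaged 41.9 and 18.5 FPKM, and IL11, another such cytokine, 8.54 FPKM, against 1.73 FPKM for IL6 itself. CLCF1 and LIF share exonic bases with other annotated genes, so their levels are uncertain. IL18, which CASP1 also cuts, had 10.4, 14.5 and 11.8 FPKM in siGFPT2 libraries, against 8.50, 9.64 and 15.6 FPKM in siNC libraries, the libraries that stood apart being the highest of each group.

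CCL26, an eosinophil chemokine, had the same shape, with 5.76, 8.77 and 6.47 FPKM in siGFPT2 libraries, against 5.53, 5.98 and 10.9 FPKM in siNC libraries. CXCL6, another neutrophil chemokine of the chromosome 4 cluster, averaged 1.04 FPKM in siGFPT2 and 1.11 FPKM in siNC libraries. Its exons overlap those of PPBPP1 on the same strand, so its level is uncertain. Of the 49 other ligands, 13 passed the filter and 0 were called. The following were chosen after their values were seen: CSF1 averaged 5.20 FPKM and IL32 4.86 FPKM over the 6 libraries, and TNF, a classical inducer of these chemokines, averaged 0.352 FPKM.

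**Figure D4:**
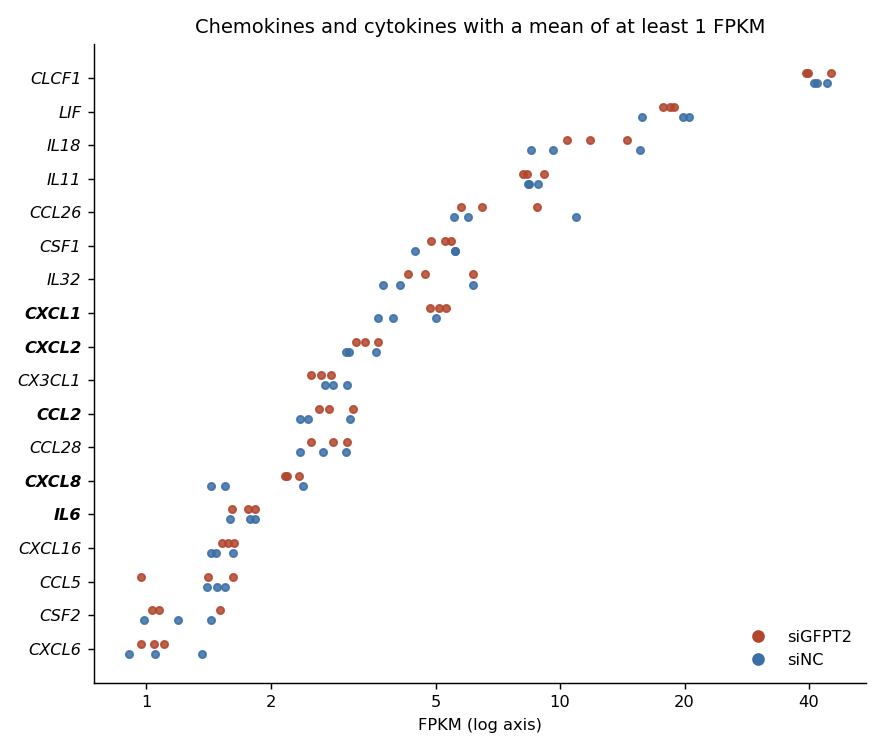
FPKM (log axis) in each library of the 18 chemokine and cytokine genes with a mean of at least 1 FPKM, highest mean on top, with siGFPT2 points drawn above siNC points in each row; names in bold belong to the set of 10. CXCL1, CXCL2, CCL2, CXCL8 and IL6 lie in the middle and lower part, under CLCF1 (41.9 FPKM) and LIF (18.5 FPKM), and within each row the groups overlap.

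Chemokine receptor mRNA was low in the line. Of 22 chemokine receptor genes, 0 passed the filter, and the highest were CCR3 (0.779 FPKM) and CCR10 (0.639 FPKM, with exons that overlap other genes). The next values were chosen after they were seen. CXCR2, CCR2 and CCR6 were listed at 0 in every library, and CXCR1 was above 0 in siGFPT2 replicate 2 alone (0.0149 FPKM). The cytokine receptors were present: IL1R1 averaged 1.96 FPKM, IL1RAP 2.73, IL6R 2.70 and IL6ST 4.17 FPKM over the 6 libraries, where the exons of IL1R1, IL1RAP and IL6ST overlap other genes. In each group all 4 were lowest in the library that stood apart. IL6ST, for example, had 5.08, 2.94 and 5.20 FPKM in siGFPT2 libraries, against 3.87, 5.23 and 2.70 FPKM in siNC libraries.

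The signalling genes that link these cytokines to each other were examined as lists of other genes, 11 lists with 146 genes in all including the ligands and receptors above. The filter passed 77 of them, of which 0 were called and 0 had an unadjusted p under 0.05. Of 12 tested genes of IL1 receptor signalling, 8 were above and 4 below a log2 fold change of 0, with a median of 0.08. IRAK1, a kinase of this pathway, was the most abundant. It had 167, 169 and 165 FPKM in siGFPT2 libraries, against 190, 168 and 160 FPKM in siNC libraries. IRAK4, the kinase upstream of it, had the smallest p of the list; its log2 fold change was 0.21 (95% interval −0.11 to 0.54, unadjusted p = 0.164). Of 7 genes of IL6 receptor signalling the median was 0.07. STAT3 had 10.1, 8.19 and 10.4 FPKM in siGFPT2 libraries, against 10.7, 10.8 and 8.04 FPKM in siNC libraries.

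Of the 7 tested subunits of NF-kappaB and its kinase, the median log2 fold change was 0.05. RELA, the transactivating subunit, whose exons overlap a non-coding RNA on the opposite strand, averaged 19.5 FPKM over the 6 libraries, and its log2 fold change was −0.03 (95% interval −0.37 to 0.32). RELA had 19.9, 18.6 and 19.1 FPKM in siGFPT2 libraries, against 22.3, 21.0 and 16.0 FPKM in siNC libraries. Of 13 inhibitors and feedback targets of NF-kappaB, 7 were above and 6 below 0, with a median of 0.001. NFKBIA, the inhibitor that NF-kappaB itself induces, had 45.8, 45.9 and 44.0 FPKM in siGFPT2 libraries, against 48.5, 43.8 and 47.6 FPKM in siNC libraries, and these ranges overlapped.

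Of 9 C/EBP, AP-1 and IRF factors, 2 were above and 7 below 0, with a median of −0.04. FOSL1, an AP-1 subunit, averaged 236 FPKM over the 6 libraries, the highest level of the 11 lists, and its log2 fold change was −0.03 (95% interval −0.32 to 0.26). Of 9 genes of cytokine mRNA decay and stability, 5 were above and 4 below 0, with a median of 0.01. ZFP36, which binds AU-rich elements and speeds the decay of cytokine mRNAs, had 4.66, 4.53 and 5.34 FPKM in siGFPT2 libraries, against 5.01, 4.41 and 4.28 FPKM in siNC libraries. Of 7 tested genes of the inflammasome and of IL1 processing, 6 were above 0, with a median of 0.05, and CASP8 had the smallest p (log2 fold change 0.19, 95% interval −0.15 to 0.52, unadjusted p = 0.232). These medians lay on both sides of the 0.03 of all features tested.

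**Figure D5:**
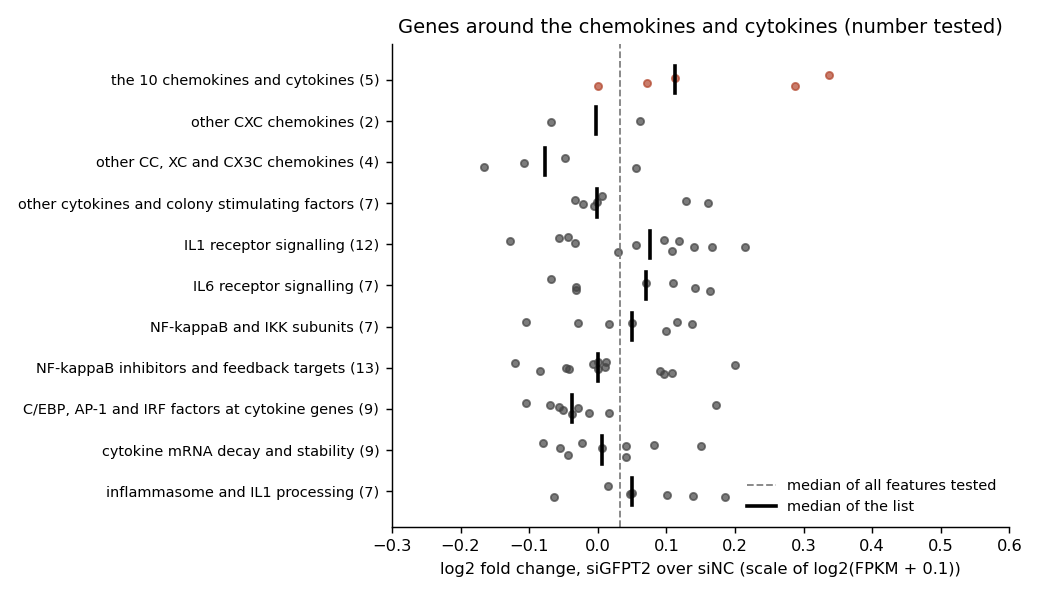
Log2 fold change, siGFPT2 over siNC, of each tested gene of the set and of 10 lists of related genes, with the number tested in parentheses; black bars are list medians and the dashed line is the median of all features tested (0.03). CXCL8 (0.34) and CXCL1 (0.29) are the points farthest to the right, and no gene shown passed the test.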

How the data were processed

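Messenger RNA of NCI-H1975 cells was sequenced as paired-end libraries, 3 labelled siGFPT2 and 3 labelled siNC. The authors deposited 1 table of FPKM per gene and library. The tools named are featureCounts, HISAT2 and DESeq2, per the submitters' processing notes; for build and annotation, none is given in the sources used here. Symbols came from a table of gene names, and positions, exon overlaps and transcripts from GENCODE 29 (GRCh38). Columns were tied to samples by their names.

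The smallest steps between FPKM values gave the depth: 36979 of 36981 features above 0 came out as whole reads within 0.0001 reads, 19937 of them with the GENCODE 29 length. For the rest the smallest length that worked was taken, so the match is partly built in, and 6 of the 10 genes (all but CXCL3, CCL2, CCL20 and IL6) rest on such a length, which can be too short and would then understate their reads. The recovered reads sum to 99.75% to 99.80% of the depths.

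The test was limma 3.58.1 (R 4.3.3), lmFit and eBayes with trend, on log2(FPKM + 0.1), which understates the change of low genes. It was two-sided, with Benjamini-Hochberg adjustment over features averaging 1 FPKM or more and a threshold of 0.05. Exact permutation tests used SciPy 1.17.1 in Python 3.11.15, and promoters were aligned with Biopython 1.88. The fit was tested on simulated data for this comparison (12895 features, biological coefficient of variation 0.1): it recovered 56% of the changes of 1.5-fold, 100% of those of 2-fold and 86% of those of 0.5-fold, with 10 false calls. The changed features were drawn at random from all of these features, whatever their level, and not from genes as low as those of the set. The simulated libraries held no shift with mRNA length like that of the real ones. These shares can therefore overstate what the fit recovers in the real data. The genes named were the 10 members, GFPT2, the 2 most alike features of each member tested, and of each list the 4 with the highest level and the 1 with the smallest p; others are marked, and a few genes under this rule are not reported here. The members and lists were chosen with earlier results of these data known. Same-numbered libraries of the groups did not deviate together throughout (correlations of 0.47, −0.72 and −0.57). The main fit therefore did not use the numbers as pairs, and an alternative used them as a block.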

Additional observations from a re-analysis of the deposited data

How the results depend on the processing

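None of the 16 alternatives called a feature, other pseudocounts, filters, scalings, left-out libraries and the limma-voom fit included; counts at an unadjusted p under 0.05 ran from 16 (mean of at least 5 FPKM, which leaves no gene of the set) through 520 (without siNC replicate 3) and 751 (siNC replicate 3 and siGFPT2 replicate 2 left out) to 754 (no filter). CXCL1 ran from 0.19 to 0.42, CXCL8 from 0.20 to 0.55 and CCL2 from 0.04 to 0.23 on the log2 scale, all above 0. CXCL2 gave −0.0025 with both libraries left out. IL6, at −0.0001, gave −0.058 (without siNC replicate 2) to 0.048 (without siGFPT2 replicate 3) when single libraries were left out, among them 0.040 without siNC replicate 1 and 0.018 without siNC replicate 3, and 0.0072 with both left out, and the cause was not tested. The untested differences of CXCL3 (−0.21 to 0.20) and CCL20 (−0.06 to 0.48) took both signs, and those of IL1A (−0.62 to −0.14) and IL1B (−0.87 to −0.18) stayed below 0. The CXCL5 difference ran from 0.24 without siNC replicate 1 to 1.04 with both left out. With the replicate number as a block 0 features were called and 63 had an unadjusted p under 0.05. The numbers share no stated origin: same-numbered libraries correlated at 0.47, −0.72 and −0.57 over deviations from the group means. Depth limits the 5 genes under 1 FPKM, CCL20 most.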
